A study of Mus musculus with 22 samples.

Results

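The genes described here are the longest protein-coding genes of the mouse, taken by length alone. They were all protein-coding genes in the RefSeq annotation of GRCm38 that lie on an assembled autosome and span 500 kb or more, apart from genes whose symbols begin with Cdh, Syne or Sorcs. Of 20661 autosomal protein-coding genes, 215 reached that length, 6 were left out by symbol, and 209 remained. Their bodies ran from 502 kb (Edil3) to 2271 kb (Ptprd) with a median of 735 kb, and together they made up 7.37% of the autosome span covered by the data. The members nearest the limit were Edil3, Dock1 and Samd12, and the genes just below it were Dnm3, Lrrc7 and Cacna1e at 494 to 496 kb. They included 4 predicted genes, which are counted and not named, and 4 pairs of members overlapped each other (3 of these pairs among predicted genes of chromosome 18, and Iqschfp with Schip1), so members are not fully independent.

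The study mapped chromatin proteins by ChIP-seq, sequencing of the DNA recovered with an antibody, in cultured mouse dermal fibroblasts, which make the collagen of skin. They were wildtype (WT) or knocked out for Lap2alpha (KO). Both genotypes were kept in DMEM with fetal calf serum, fixed with DSG as well as formaldehyde, and their chromatin sheared in 16 or 20 sonication cycles. How the KO cells were derived, and from how many animals or clones, is not given in the sources used here. Lamin A/C was precipitated with the antibodies 3A6 and E1, BRG1 and CHD4 with 1 antibody each in both genotypes, and Lap2alpha with antibody 1H11 in WT alone. That gave 18 libraries, with 1 library for each genotype, antibody and sonication length. WT and KO libraries of the same antibody and cycles formed 4 lamin A/C pairs, 2 BRG1 pairs and 2 CHD4 pairs. Pairs differ in antibody or sonication and not in cells, so no test was run, and a mean ± SD over pairs gives their spread only.

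A-type lamins form part of the lamina under the nuclear envelope, where gene-poor chromatin is attached, and also exist in the nuclear interior. Lap2alpha is the nucleoplasmic form of LAP2 that binds A-type lamins in the interior. BRG1 is the ATPase of SWI/SNF chromatin remodellers and CHD4 that of NuRD, and both are commonly found at active promoters and enhancers. Very long genes in mammals are mostly introns. Many encode synaptic adhesion proteins, receptors and ion channels that fibroblasts are not known for, and several overlap common fragile sites.

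The lists held 7283 (KO CHD4, 20 cycles) to 233745 (KO E1, 20 cycles) merged regions, and their read depth is unknown. In 7 lists the deposited intervals overlapped each other and in 11 they did not, and the 3A6, BRG1 and CHD4 pairs at 20 cycles set lists of these different forms against each other. The labelled cell type was checked with BRG1 at gene ends. BRG1 regions lay there in all 4 BRG1 libraries for 10 of 11 fibroblast genes, for 0 of 4 keratinocyte, 0 of 4 leukocyte and 0 of 3 melanocyte genes, and for 1 of 4 endothelial (Tek) and 1 of 5 neuronal (Snap25) genes.

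Very long genes carried more lamin A/C than the rest of the autosomes in WT cells. Summed over the 209 bodies, WT lamin A/C regions covered 1.42% (16 cycles) and 4.34% (20 cycles) with 3A6, and with E1 0.645% and 3.25%. The same libraries covered 0.849%, 2.60%, 0.400% and 1.91% of the autosome spans. The ratio was 1.66 ± 0.04-fold (SD, n = 4 libraries) and above 1 in all 4 libraries. In KO cells lamin A/C covered 1.92%, 3.23%, 1.63% and 4.80% of the bodies in the same order, and the ratio to the autosomes was 1.36 ± 0.19-fold (SD, n = 4). The 4 KO ratios, from 1.09 to 1.50, all lay below the 4 WT ratios, from 1.61 to 1.70.

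BRG1 and CHD4 showed the opposite pattern. BRG1 covered 1.22% (16 cycles) and 2.47% (20 cycles) of the bodies in WT, and 1.82% and 2.14% in KO, which was 0.638 ± 0.043 times the autosome coverage (SD, n = 4). CHD4 covered 0.671% and 1.02% in WT and 1.09% and 0.0526% in KO, the last from the shortest list. In 8 of 8 BRG1 and CHD4 libraries the very long genes were covered less than the autosomes. Lap2alpha covered 0.718% and 0.983% of the bodies, 1.27 and 1.03 times the autosome coverage, so it was close to even over these genes.

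**Figure D1:**
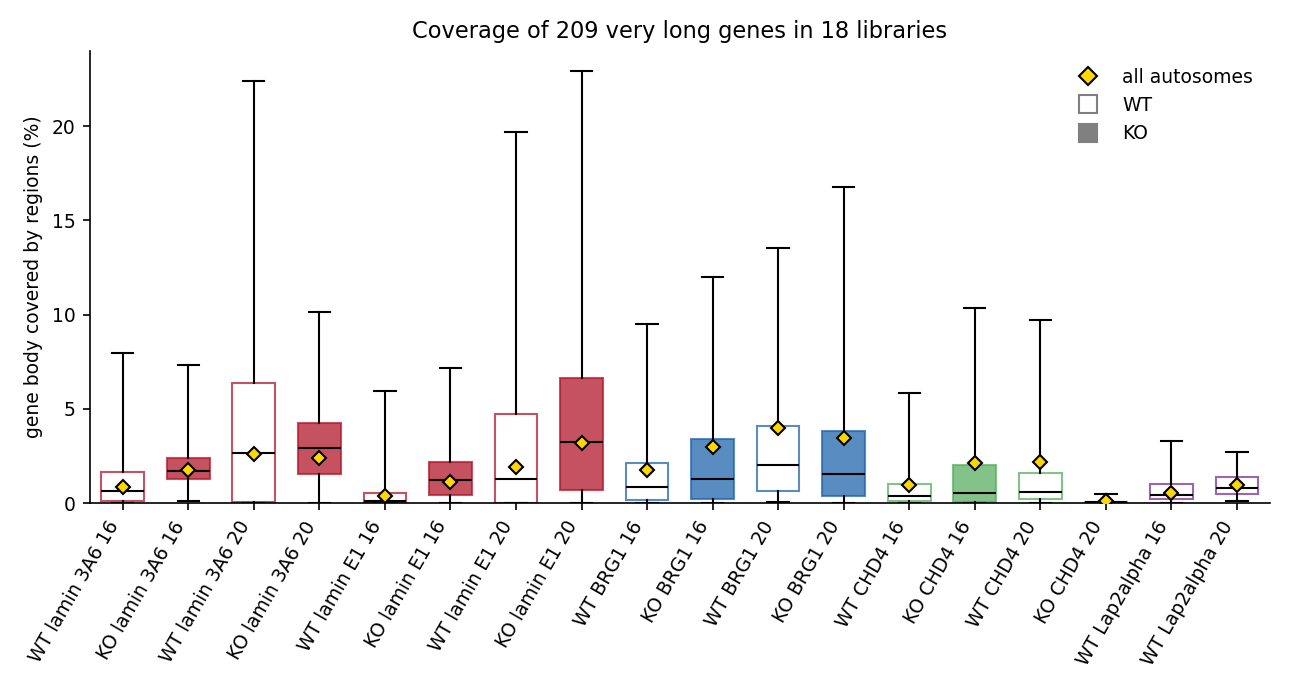
Percent of gene body covered by merged regions for the 209 very long genes in each of 18 libraries (boxes span the quartiles with the median as a line, and whiskers reach the lowest and highest gene). Open boxes are WT, filled boxes KO, and diamonds give the coverage of all autosomes. The highest single values were 22.4% with WT 3A6 and 22.9% with KO E1, both at 20 cycles, and in the same libraries the lowest genes were at 0.

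Above 10 kb, lamin A/C coverage was graded with gene length. Averaged over the 4 WT lamin libraries, bodies under 10 kb were covered 0.356 times as much as the autosomes and bodies of 10 to 50 kb 0.217 times as much. The ratio was 0.382 for genes of 100 to 200 kb, 0.800 for the 729 genes of 200 to 500 kb and 1.66 for the very long genes. In KO cells the corresponding ratios were 0.480, 0.487, 0.715, 1.02 and 1.36, a smaller range over length. BRG1 ran the other way, with 2.17 times the autosome coverage in genes under 10 kb, 1.10 in genes of 200 to 500 kb and 0.638 in the very long genes.

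**Figure D2:**
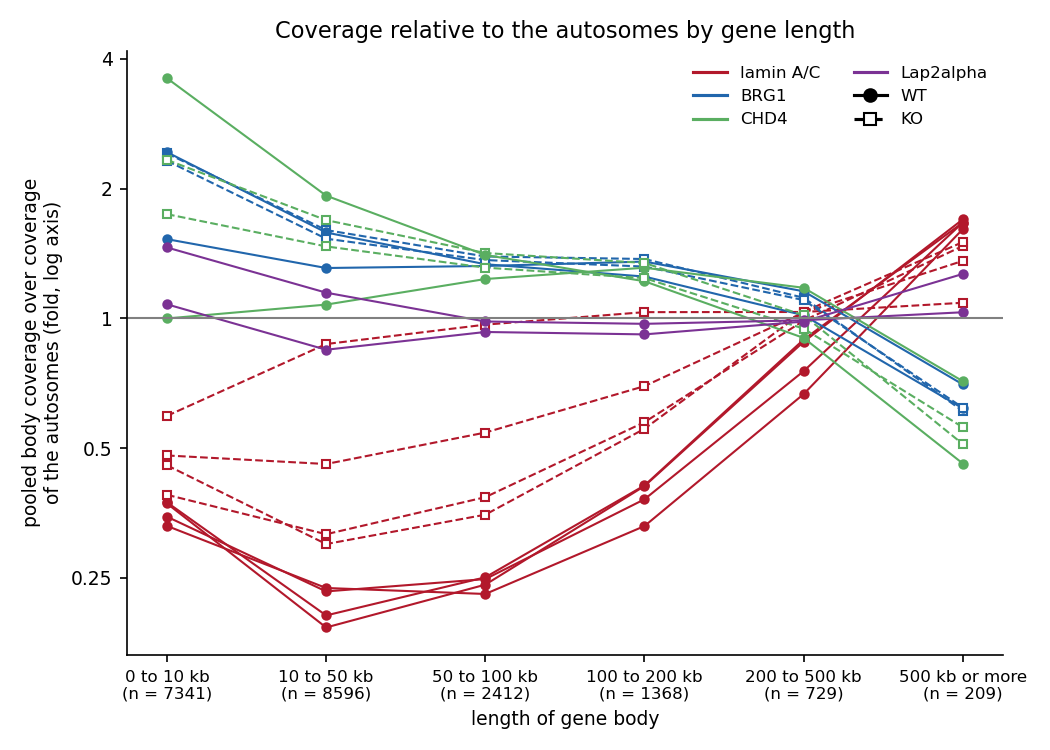
Coverage of gene bodies relative to the autosomes (y axis, fold, log scale) in 6 classes of gene length (x axis, with the number of genes in each), with 1 line per library coloured by protein. WT lamin lines (solid red) increase from genes of 10 to 50 kb to between 1.61 and 1.70 in the very long genes, while BRG1 and CHD4 lines lie below 1 there.

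The 209 genes were far from uniform. Mean WT lamin A/C coverage over 4 libraries was under 0.5% in 80 members, 0.5% to 2% in 54, 2% to 5% in 40 and 5% or more in 35. In 13 members no WT library held a lamin A/C region at all, among them Lpp, Gpc6, Kirrel3, Frmd4a, Mast4 and Ptprk. The most covered member was Clstn2, which encodes the synaptic protein calsyntenin 2, at chr9:97444395-98033373. Of its length 3A6 regions took 5.62% (16 cycles) and 22.4% (20 cycles), and E1 regions 1.84% and 19.5%. Among the next were Iqcm, Tmem132d and Cntnap5c (a contactin-associated protein). Iqcm stood at 7.96%, 17.6%, 5.93% and 15.7% in the same order. At 20 cycles these 4 genes were therefore 15.7% covered or more with each antibody, against 1.91% to 2.60% of the autosomes.

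BRG1 and CHD4 were highest in the same 5 members, and these held little lamin. Dlgap2, a postsynaptic scaffold protein, had BRG1 over 6.58% (16 cycles) and 13.5% (20 cycles) of its body in WT, and in KO 11.1% and 16.8%. Its lamin A/C coverage stayed at 0.0908% or less in all 8 lamin libraries. Rad51b, a protein of homologous recombination, was 9.51% and 13.3% covered by BRG1 in WT and 12.0% and 12.5% in KO. Lpp, a LIM protein of focal adhesions, followed with 6.26%, 10.5%, 9.03% and 8.37%, and Psd3, an exchange factor for ARF6, and Kirrel3, an adhesion protein, completed the 5. All 4 BRG1 values of each of these 5 genes were above the autosome coverage of their library.

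Across the 209 members, mean BRG1 and WT lamin A/C coverage ran in opposite directions (Spearman correlation −0.61, Pearson r −0.43), while BRG1 and CHD4 ran together (Spearman correlation 0.97). These are descriptions over genes, which share libraries and neighbours and are not independent. The median BRG1 coverage was 3.12% in the 80 members with WT lamin under 0.5% and 0.342% in the 35 members with 5% or more. Length within the set said little about lamin (Spearman correlation 0.21).

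Some of the members were grouped by lists of genes by role. The lists are incomplete, since 58 of the 209 members, Clstn2 among them, were on none. The 43 genes listed under adhesion and axon guidance had a median WT lamin A/C coverage of 1.91%. The 26 listed under receptors and channels had 2.35%, against 1.23% over all 209. The 40 scaffold and signalling genes had 0.245%, the 19 transcription and RNA genes 0.788%, and the 9 matrix genes 0.794%. Median BRG1 coverage was 0.810% and 0.609% in the first 2 groups and 2.21%, 3.36% and 0.696% in the last 3, against 1.43% over all members. The 31 genes listed as widely expressed had the lowest WT lamin median, 0.0242%, and a BRG1 median of 3.36%. All these lists were chosen with earlier results of these data known, and expression was not measured here. The 16 genes at common fragile sites, such as Fhit and Wwox, had 1.64% lamin and 0.927% BRG1. Ranges within each group were wide, reaching from 0 to 11.21% WT lamin among the adhesion and guidance genes.

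BRG1 marked the starts of fewer very long genes than of genes in general. A start was listed for 164 members. A BRG1 region lay within 1 kb of it in 27.4% (16 cycles) and 42.7% (20 cycles) of them in WT, and 36.0% and 42.1% in KO, against 37.6%, 61.6%, 54.9% and 58.3% of all 16456 genes with a listed start. In all 4 libraries BRG1 was at a start of 43 members, 26.2% of the 164, against 35.8% of all genes with one. Among these 43 were Lpp, Rad51b, Foxp1 and Zbtb20 (transcription factors), Ptprk and Ptprm (receptor phosphatases), Rarb (a retinoic acid receptor), Pard3 (a polarity protein) and Elmo1 (an activator of Rac). Those 43 had a median WT lamin coverage of 0.0740% and a median BRG1 body coverage of 3.82%. The 82 members with BRG1 at a start in no library had 1.93% lamin and 0.593% BRG1.

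The sequences of the starts were compared through CpG, since BRG1 over the genome sat at CpG-dense starts. The RefSeq promoter table (GRCm38.p6) gives windows of 300 bases, 250 before and 50 after a start, and 264 windows matched the 164 members. Over all autosomal genes, windows with BRG1 within 1 kb in all 4 libraries held a median of 22 CpG and those with none held 4. In the very long genes the medians were 19 over 54 windows and 10.5 over 154 windows. Among windows with no BRG1, 55.2% of those of the very long genes held 10 or more CpG, against 47.7% in genes of 200 to 500 kb and 25.2% over all genes. Windows of CpG density without a BRG1 region were thus common among very long genes, and 20 of these 85 windows (23.5%) lay under a WT lamin A/C region in at least 1 library, against 9.03% of such windows in genes of 200 to 500 kb and 4.71% over all genes.

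Shown here are 2 of the 15 windows that BRG1 covered over every base in all 4 libraries (Adgrl3, the adhesion receptor latrophilin 3, and Celf2, an RNA-binding splicing factor). They are followed by the 2 windows with 10 or more CpG and no BRG1 nearby that WT lamin A/C covered most (Trpm3, a cation channel, and Nlgn1, the postsynaptic adhesion protein neuroligin 1). All 4 were chosen after their values were seen, and capitals mark each CpG. The Adgrl3 window is chr5:81021343-81021642 on the plus strand, with 20 CpG. The Celf2 window is chr2:7081253-7081552 on the minus strand, with 6. The Trpm3 window is chr19:22447958-22448257 on the plus strand, with 10, and the Nlgn1 window is chr3:26331860-26332159 on the minus strand, with 14.
Adgrl3: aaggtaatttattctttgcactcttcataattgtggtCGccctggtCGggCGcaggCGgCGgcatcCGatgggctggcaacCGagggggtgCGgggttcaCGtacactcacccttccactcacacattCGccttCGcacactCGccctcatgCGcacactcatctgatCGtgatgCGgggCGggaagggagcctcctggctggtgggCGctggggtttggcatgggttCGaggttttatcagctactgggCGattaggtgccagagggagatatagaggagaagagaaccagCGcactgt
Celf2: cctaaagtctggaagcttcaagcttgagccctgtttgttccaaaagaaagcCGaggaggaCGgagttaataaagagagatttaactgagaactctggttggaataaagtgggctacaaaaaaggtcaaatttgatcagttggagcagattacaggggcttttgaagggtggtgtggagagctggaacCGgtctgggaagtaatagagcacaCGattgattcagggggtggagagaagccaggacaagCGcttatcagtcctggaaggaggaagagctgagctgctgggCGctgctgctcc
Trpm3: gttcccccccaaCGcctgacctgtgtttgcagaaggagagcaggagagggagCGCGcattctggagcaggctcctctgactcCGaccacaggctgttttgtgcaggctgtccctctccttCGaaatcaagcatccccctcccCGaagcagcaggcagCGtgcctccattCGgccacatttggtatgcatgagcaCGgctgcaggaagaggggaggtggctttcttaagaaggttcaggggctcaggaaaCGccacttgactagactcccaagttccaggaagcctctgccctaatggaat
Nlgn1: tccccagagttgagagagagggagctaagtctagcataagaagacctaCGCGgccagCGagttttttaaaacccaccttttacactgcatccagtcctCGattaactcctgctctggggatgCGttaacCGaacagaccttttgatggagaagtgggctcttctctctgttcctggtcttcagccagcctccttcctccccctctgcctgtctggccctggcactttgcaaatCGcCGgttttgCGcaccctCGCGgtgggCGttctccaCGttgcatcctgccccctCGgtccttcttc

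The latter 2 starts were chosen by their WT lamin A/C coverage, so less lamin in KO than in WT there is partly built in. WT 3A6 at 20 cycles covered 300 of the 300 bases at both the Trpm3 and the Nlgn1 start, and WT E1 at 20 cycles covered 164 and 223 of them. In KO, no lamin library covered any base of the Trpm3 window, and E1 at 20 cycles covered 223 bases of the Nlgn1 window. At the Adgrl3 and Celf2 starts no WT lamin library covered a base, and KO 3A6 at 16 cycles covered 38 bases of the Celf2 window. The letters TGANTCA, the AP-1 motif, read on both strands at once because it is its own reverse complement, were in 5 of the 54 member windows with BRG1 in all 4 libraries (9.26%) and in 7 of the 154 with none (4.55%). In genes of 200 to 500 kb the 2 shares were 6.44% and 6.46%. Over all genes they were 5.50% and 9.21%, with 7.06% of all 20084 windows. With 5 and 7 member windows holding the motif, no difference from other genes is read from them.

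The mean lamin A/C difference between KO and WT over the very long genes varied in sign between pairs. In 4 matched pairs the mean body coverage by lamin A/C differed, KO minus WT, by 0.548 (16 cycles) and −1.07 (20 cycles) percentage points for 3A6, and for E1 by 0.971 and 1.52 points. The mean was 0.490 ± 1.12 points (SD, n = 4 pairs, 3 of 4 above 0), so the average difference was smaller than its spread over pairs. The difference in autosome coverage was 0.918, −0.225, 0.708 and 1.28 points in the same pairs. Relative to the autosomes the KO minus WT difference was −0.30 ± 0.22 on the log2 scale (SD, n = 4), below 0 in 4 of 4 pairs. When the 20-cycle 3A6 pair, which mixes list forms, was left out, the mean difference was 1.01 ± 0.49 points (SD, n = 3 pairs). Without the 16-cycle 3A6 pair instead it was 0.471 ± 1.37 points. Without the E1 pair at 16 or at 20 cycles it was 0.330 ± 1.31 or 0.148 ± 1.08 points.

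By single gene, lamin A/C coverage was higher in KO in all 4 pairs for 96 of the 209 members, or 45.9%. Among all autosomal protein-coding genes that share was 7.6%, and among genes of 200 to 500 kb 42.4%, near that of the members. Genes with equal coverage in WT and KO, as where neither list held a region, could not be called. With E1 at 20 cycles 18.2% of all genes were higher in KO and 3.32% lower, against 75.1% and 15.3% of members. This limits the all-gene shares of such counts. It was lower in all 4 pairs for 9 members, or 4.31%, against 0.484% of all genes and 1.51% of the 200 to 500 kb genes. With each library scaled to its autosome coverage, 81 were higher (79 of them also in the unscaled count) and 39 lower (all 9 included), against 6.86% and 1.41% of all genes. As shares, 38.8% of members and 38.0% of genes of 200 to 500 kb were higher on that scale, and 18.7% and 6.31% were lower.

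**Figure D3:**
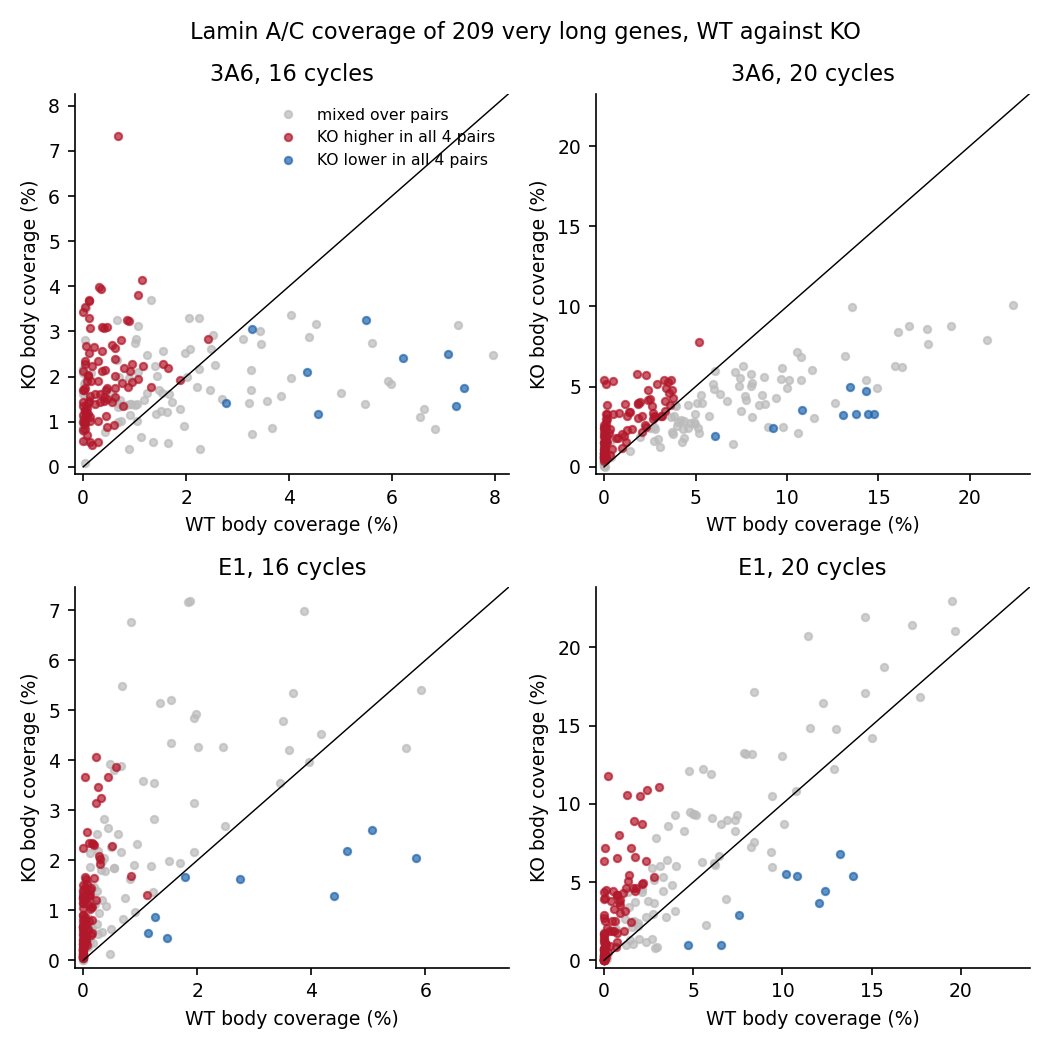
Lamin A/C coverage of each of the 209 genes in WT (x axis, percent of body) and KO (y axis, percent of body) for the 4 antibody and sonication pairs, with the line of equality. Red genes were higher in KO in all 4 pairs (96) and blue genes lower (9). Genes near 0 in WT spread upward in KO, and with 3A6 the genes of highest WT coverage lie below the line.

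Members with little lamin in WT held more in KO. Of the 80 members with mean WT coverage under 0.5%, 61 stood at 0.5% or more in KO and 57 were higher in all 4 pairs. Of the 35 members with 5% or more in WT, 0 were higher in all 4 pairs and 8 were lower in all 4. The groups were formed by the WT values that enter the difference, so this contrast is partly built in. The number of members with no lamin region in any library of a genotype was 13 in WT and 0 in KO. The KO lists were longer in each pair. They held 188132, 226867, 107714 and 233745 regions (3A6 at 16 and 20 cycles, then E1), against 86033, 182893, 43793 and 144476 in WT. The part of list length in this count and in the spread over members was not tested. The spread over members also narrowed relative to the mean. The coefficient of variation over the 209 genes was 1.34, 1.18, 1.91 and 1.39 in WT (3A6 at 16 and 20 cycles, then E1) and 0.485, 0.670, 0.973 and 1.08 in KO, lower in 4 of 4 pairs.

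Among members higher in KO in all 4 pairs, the largest mean difference was in Ryr3, a ryanodine receptor that releases calcium from internal stores, at chr2:112631354-113217405. WT libraries covered 0.362%, 0.504%, 0.0338% and 0.236% of it (3A6 at 16 and 20 cycles, then E1), and KO libraries 2.12%, 5.37%, 3.66% and 11.8%. The groups did not overlap and the mean difference was 5.44 ± 4.25 points (SD, n = 4 pairs). The 2.5 Mb to each side of Ryr3 stood at 3.11% in WT and 3.14% in KO, so the difference was within the gene. BRG1 over Ryr3 was lower in KO, from 1.27% and 3.85% to 1.03% and 1.86%.

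Fgf14, an intracellular FGF that binds voltage-gated sodium channels, was covered 0.0282%, 0%, 0% and 0.0401% in WT and 3.54%, 5.39%, 2.24% and 7.18% in KO. Dcc, the netrin receptor of axon guidance, went from 0.763%, 2.38%, 0.233% and 1.30% to 1.85%, 4.77%, 4.07% and 10.6%. KO was above WT in all 4 pairs for both genes, and for Fgf14 the groups did not overlap. Their neighbourhoods were higher in KO as well, by 1.86 and 1.43 points on average.

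The next largest differences were Etl4 with 4.06 ± 2.62 points and Malrd1 with 3.88 ± 2.29. Hs6st3, a heparan sulfate sulfotransferase, was 3.67 ± 2.00 points higher in KO, Fstl5, a follistatin-like secreted protein, 3.51 ± 3.52, and Lhfpl3 3.43 ± 1.65. Rora, a nuclear receptor, was 3.39 ± 3.45 points higher and Agbl4, a carboxypeptidase that trims glutamate from tubulin, 3.15 ± 2.44 (SD, n = 4 pairs each). Each was higher in 4 of 4 pairs. For Fstl5 and Agbl4 the neighbourhood differed by 0.172 and 0.0209 points, far less than the gene, while for Etl4 and Malrd1 it was 2.39 and 2.19 points higher.

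Fewer genes were lower in all pairs, and the largest of these differences exceeded that of Ryr3. Nlgn1 went from 7.40%, 14.4%, 5.83% and 13.9% in WT to 1.74%, 3.27%, 2.05% and 5.36% in KO, a difference of −7.29 ± 3.24 points (SD, n = 4 pairs). Prkg1, the cGMP-dependent protein kinase, went from 7.10%, 14.7%, 4.40% and 12.0% to 2.5%, 3.29%, 1.28% and 3.67%. For both genes every KO value was below the WT value of its pair. The mean difference was −5.89 points in Naaladl2, −5.56 in Trpm3, −4.95 in Lrmda and −4.66 in Cadps2, a vesicle priming factor. It was −3.90 points in Adgrb3, an adhesion receptor, −3.13 in Sntg1, a syntrophin, and −2.44 in Khdrbs2, an RNA-binding protein.

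Their surroundings behaved differently from gene to gene. The 2.5 Mb to each side differed by −4.12 points around Nlgn1 and by −5.00 around Naaladl2, its neighbour on chromosome 3. Around Prkg1 and Trpm3 on chromosome 19 the neighbourhood differed by −0.388 and −0.283 points, and around Lrmda by 0.366. Taking the neighbourhood off the body values left 35 members higher and 32 lower in all 4 pairs, of which 30 and 8 were in the counts without that step. These were 16.7% and 15.3% of members, against 16.6% and 15.9% of genes of 200 to 500 kb and 5.23% and 29.7% of all genes, so both shares were near those of the next length class.

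Antibodies differed in the lamin-rich members. In 27 members, 12.9%, coverage was lower in KO in both 3A6 pairs and higher in both E1 pairs, against 1.06% of all genes and 4.53% of genes of 200 to 500 kb. The reverse pattern was found in 0 members and in 0.0242% of all genes. Clstn2 showed the widest split, from 5.62% and 22.4% in WT to 2.75% and 10.1% in KO with 3A6, and from 1.84% and 19.5% to 7.17% and 22.9% with E1. Tmem132d, Tenm3, Csmd3, Kcnma1 and Fhit were also in this group, and 16 of the 35 members with WT lamin of 5% or more belonged to it. The 3A6 pair at 20 cycles sets lists of different form against each other, and the part of list form in this split was not tested.

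In each lamin A/C pair most bases covered in WT were not covered in KO, as also in the BRG1 pair at 20 cycles. Sharing between libraries of the same genotype was not measured, so the part of genotype in this was not tested. Of the bases covered by WT lamin A/C in the very long genes, 12.0% (16 cycles) and 16.5% (20 cycles) were also covered in KO for 3A6, and for E1 20.9% and 40.6%. Each share was above the KO coverage of the whole bodies, which was 1.92%, 3.23%, 1.63% and 4.80% in the same order. Over the autosomes the shares of WT bases also covered in KO were 13.2%, 17.6%, 24.2% and 43.7%. For BRG1 at 16 cycles the corresponding shares were 72.2% in the very long genes and 79.1% over the autosomes, and at 20 cycles 36.9% and 44.3%. The CHD4 pair at 16 cycles shared 62.2% in the very long genes and 69.6% over the autosomes. The 20-cycle pair, whose KO list is short, shared 1.70% and 1.77%.

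Lap2alpha and WT lamin A/C tended to vary together from gene to gene. Across members, mean Lap2alpha and WT lamin coverage had a Spearman correlation of 0.54, and Lap2alpha in the body and in the 2.5 Mb to each side of it one of 0.88. Highest in Lap2alpha were Lrmda (2.75% and 2.72% at 16 and 20 cycles), Egfem1 (3.28% and 2.04%), Prkg1 (2.58% and 2.67%), Nrg1, the ErbB ligand neuregulin 1 (3.08% and 2.03%), and Fhit, a hydrolase encoded at a fragile site (2.92% and 2.17%). Lamin A/C was higher in KO in all 4 pairs in 55 of the 92 members with Lap2alpha under 0.5% and lower in 0 of them. In the classes of 0.5% to 1% and 1% to 2%, 19 of 43 and 17 of 55 members were higher, and 3 and 1 lower. Of the 19 members with 2% or more, 5 were higher and 5 lower, beside 45.9% and 4.31% of all members. Median WT lamin was 0.265% in the lowest class and 5.81% in the highest. WT lamin enters the difference, so this contrast is partly built in. The neighbourhoods of these 2 classes ran the same way, with median differences of 0.948 and −0.763 points.

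Neighbouring genes and the sequence between them shared levels in places. On chromosome 14, bins of 5 Mb were read with the members' bodies left out, over the first 60 Mb, from 60 to 80 Mb and beyond. Mean Lap2alpha was 1.10%, 0.375% and 0.0820% in these segments. Its bins ranged from 0.00526% to 2.47% in the first segment, from 0.319% to 0.413% in the second and from 0.0556% to 0.106% in the last. WT lamin A/C was 1.76%, 0.0234% and 0.0352%, and KO lamin 2.21%, 0.906% and 1.81%. BRG1 was 2.99%, 3.16% and 0.553% in WT and 3.13%, 4.68% and 1.30% in KO. The 5 members beyond 80 Mb were Pcdh9, Gpc5, Gpc6, Hs6st3 and Fgf14, and together with Cntnap2 on chromosome 6 they were the 6 members lowest in Lap2alpha, from 0.0496% (Pcdh9) to 0.141% (Hs6st3). All 6 had WT lamin of 0.0759% or less and KO lamin of 0.693% to 4.59%.

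Mean Lap2alpha and BRG1 were lower beyond 80 Mb, while WT lamin A/C was already near 0 from 60 Mb. BRG1 was uneven beyond 80 Mb. At 16 cycles its bins ran from 0.00816% to 1.50% in WT and from 0.0152% to 4.05% in KO. The lists hold no measure of DNA copy number and input libraries were not analysed here, so the part of copy number in these levels was not tested. On chromosome 3 Lap2alpha stepped from 2.24% (first 45 Mb) to 1.17% and, from 110 Mb on, 0.548%, and the first segment holds Naaladl2, Nlgn1 and Egfem1. Of the 9 members lower in all pairs, 2 lay on chromosome 3, 2 on chromosome 19 and 3 on chromosome 1.

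**Figure D4:**
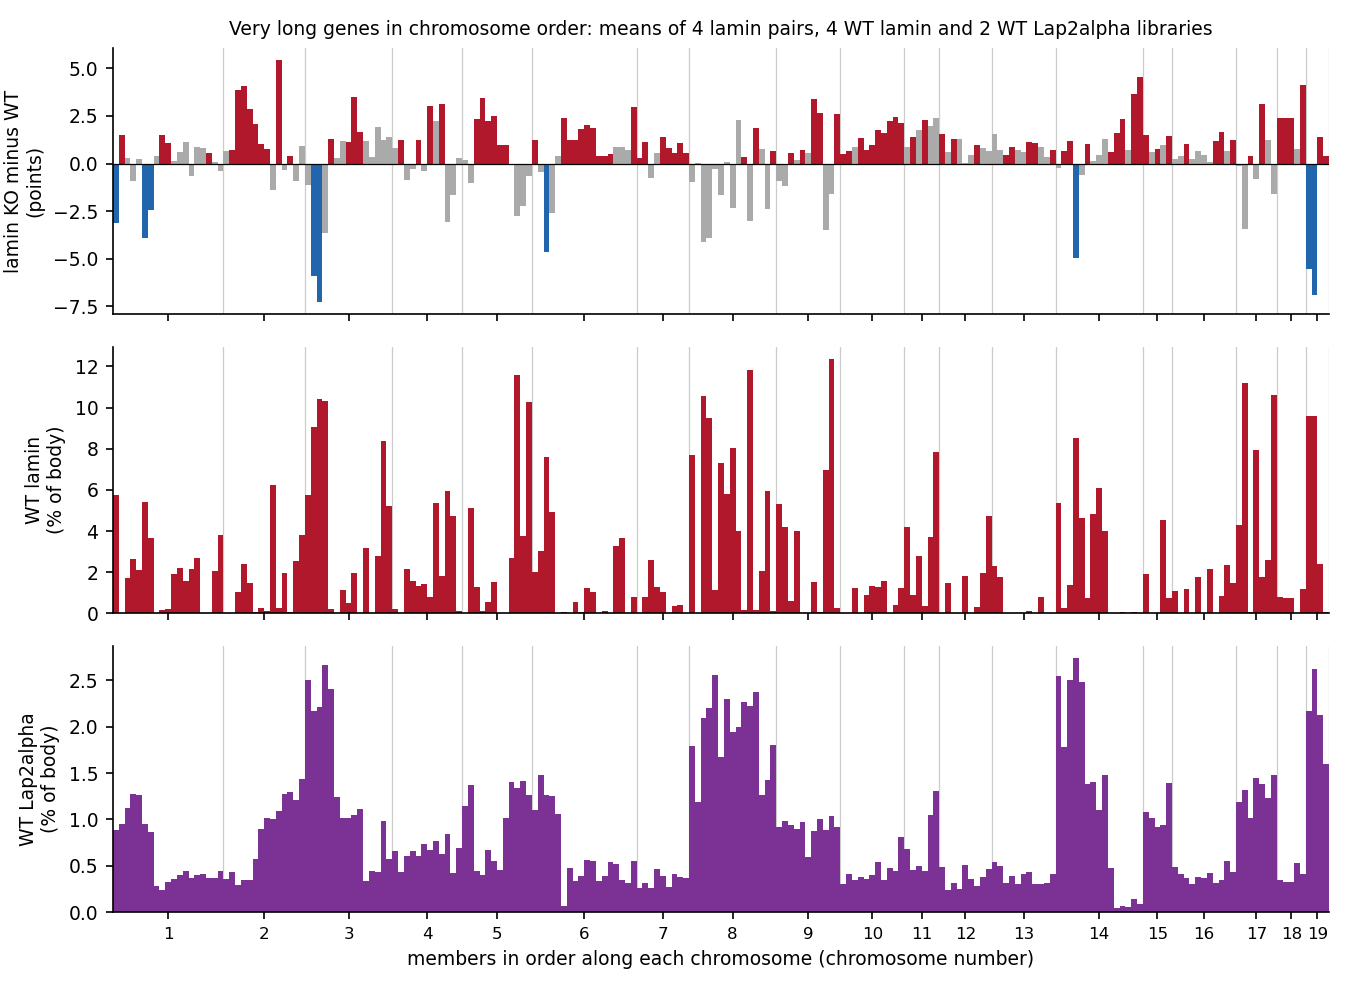
The 209 genes in order along the 19 autosomes (x axis), with the mean KO minus WT lamin A/C difference over 4 pairs (top, percentage points, red and blue where all 4 pairs were higher or lower), mean WT lamin A/C coverage (middle, percent of body) and mean WT Lap2alpha coverage (bottom, percent of body). Lap2alpha runs in steps shared by neighbouring genes, near 0 over the last 5 members of chromosome 14 and highest on parts of chromosomes 3, 8, 14 and 19.

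Lamin A/C lay toward the middle of the genes, and BRG1, with CHD4 in 3 of 4 libraries, was above the middle at the start. Each body was divided into 10 equal bins from end to end. In WT the outer 2 bins were covered less than the 4 middle bins, with a log2 ratio of −0.25 ± 0.07 (SD, n = 4 libraries, below 0 in 4 of 4). In KO the log2 ratio was −0.08 ± 0.08, below 0 in 3 of 4 libraries. The body exceeded the 250 kb to each side by 0.469 ± 0.329 points in WT and by 0.426 ± 0.304 in KO, above 0 in 8 of 8 libraries.

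WT and KO differed most at the start of the gene. Over the 164 members with a listed start, the log2 ratio of the first bin to the middle was −0.34 ± 0.16 in WT, from −0.58 to −0.21. In KO it was −0.01 ± 0.08, from −0.10 to 0.08, so the ranges of WT and KO did not overlap. For the last bin it was −0.20 ± 0.05 in WT and −0.17 ± 0.10 in KO. Lap2alpha was even along the genes, with 0.03 ± 0.14 in the first bin (n = 2). BRG1 in the first bin was above the middle by 0.43 ± 0.02 in WT and 0.31 ± 0.01 in KO, and CHD4 in WT by 0.52 ± 0.11 (n = 2 each). CHD4 in KO was 0.44 at 16 cycles and −0.26 at 20 cycles, the latter from 300 regions in the members. In the 100 kb beyond the gene end BRG1 covered 2.65% in WT and 2.99% in KO, against 1.77% and 1.92% in the middle of the body.

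**Figure D5:**
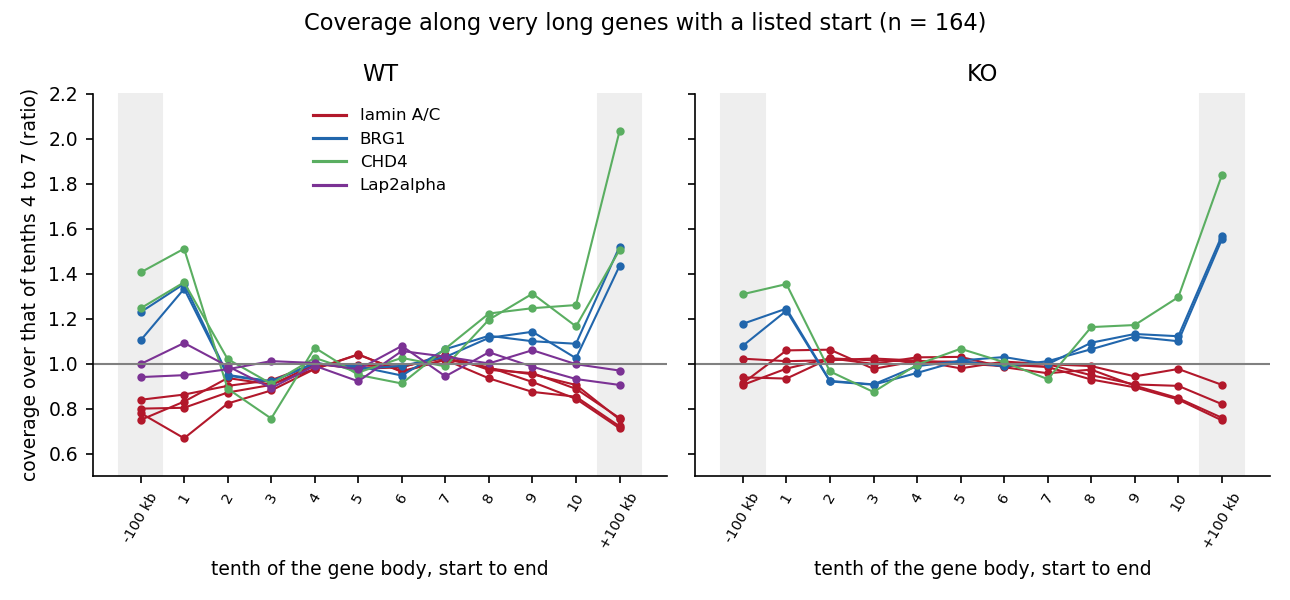
Coverage in 10 equal bins of the gene body from start to end and in the 100 kb before and after it (x axis), divided by that of the middle 4 bins (y axis, ratio), for the 164 genes with a listed start, 1 line per library in WT (left) and KO (right). The KO CHD4 library at 20 cycles, with 300 regions in the members, is not drawn. WT lamin lines dip at both ends, KO lamin lines lie within 0.1 of the middle on the log2 scale in the first bin and lower toward the end, and BRG1 and CHD4 are raised in the first bin.

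BRG1 differed between genotypes in a direction that depended on sonication. The mean over members was 0.709 points higher in KO at 16 cycles and differed by −0.288 points at 20 cycles. BRG1 coverage of the autosomes differed in the same directions and by more, by 1.24 and −0.546 points. BRG1 coverage was higher in KO in both pairs for 61 members, 29.2%, against 22.5% of all genes and 38.5% of genes of 200 to 500 kb. It was lower in both for 50 members, 23.9%, against 6.157% and 12.8%. The share higher was below that of the next length class, and the share lower was above both backgrounds. The WT and KO BRG1 lists at 20 cycles differ in form, and the part of this was not tested.

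The largest BRG1 difference was in Nfia, a transcription factor of the nuclear factor I family, from 2.75% to 8.19% at 16 cycles and from 4.42% to 10.0% at 20 cycles. Its CHD4 at 16 cycles went from 0.886% to 5.28%. Dlgap2 was 3.86 points higher in KO on average, Sema6d, a semaphorin, 2.96, Gpc6, a glypican, 2.90 and Arhgap26, a GTPase-activating protein, 2.79. Gpc6 lies in the chromosome 14 segment, and its surroundings within 2.5 Mb were 1.37 points higher in BRG1. For Sema6d the surroundings differed by 0.0109 points.

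Among members other than the predicted genes, the 5 largest decreases in mean were in genes of neuronal adhesion proteins and receptors. Adgrl3 went from 4.06% and 6.32% to 1.88% and 2.17%, although BRG1 covered the printed start in all 4 libraries. Cadm2, a synaptic adhesion molecule, went from 2.26% and 4.56% to 0.371% and 0.741%. Grik2, a kainate receptor subunit, went from 1.66% and 3.08% to 0.353% and 0.671%. The mean difference was −2.12 points in Lingo2 and −2.40 in Tenm3, a teneurin. In Adgrl3, Cadm2, Lingo2 and Grik2, WT lamin A/C was at most 0.119% in any library and mean KO lamin was higher by 0.981, 1.17, 1.21 and 1.32 points. Over the whole set, lower BRG1 and higher lamin coincided at about the share of all members. Lamin was higher in all 4 pairs in 24 of the 50 members with less BRG1 (48.0%) and in 30 of the 61 with more (49.2%), against 45.9% of all members, and the 24 were 25.0% of the 96 with higher lamin.

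CHD4 followed BRG1 at 16 cycles, with a mean of 0.506 points more in KO, and differed by −1.11 points at 20 cycles, where the KO list held 7283 regions. CHD4 coverage of the autosomes differed by 1.19 and −2.11 points in these pairs. Body coverage by CHD4 was higher in both pairs for 5 members, 2.39%, against 0.547% of all genes and 0.96% of genes of 200 to 500 kb. It was lower in both for 59, 28.2%, against 6.11% and 13.7%. The 5 were Gpc5, Hs6st3, Fgf14, Dpyd and Cntnap2, and 4 of them are among the 6 members lowest in Lap2alpha. The KO list at 20 cycles held 300 regions in all members and covered at most 0.488% of any, so these 5 calls rest on low values. At 20 cycles alone 196 members were lower (93.8%), near the 92.6% of genes of 200 to 500 kb and beside 66.3% of all genes. At 16 cycles alone 63 were lower (30.1%), against 14.5% and 6.95%.

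The listed groups are given here by count, without the 58 members on no list. Lamin A/C was higher in all 4 pairs in 18 of the 43 adhesion and guidance genes, 9 of 26 receptors and channels, 21 of 40 scaffold and signalling genes, 10 of 19 transcription and RNA genes and 6 of 9 matrix genes. It was also higher in 17 of 31 widely expressed genes and 7 of 16 fragile-site genes, beside 96 of all 209. BRG1 was lower in both pairs in 15 of the 43 adhesion and guidance genes and 11 of the 26 receptors and channels, beside 50 of all 209, and in 4 of 40 scaffold and signalling genes and 2 of 19 transcription and RNA genes. Fhit, at the best known fragile site, had WT lamin of 4.04%, 7.60%, 2.49% and 7.31% and KO lamin of 3.37%, 6.30%, 2.69% and 8.24%. The median lamin difference was 0.480 points in fragile-site genes and 0.719 over all members.

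The 3 longest genes, all adhesion proteins of neurons, differed from each other. Ptprd, a receptor phosphatase, held 0.937%, 2.97%, 0.325% and 1.98% lamin in WT and 1.39%, 1.77%, 0.574% and 1.34% in KO. Cntnap2, a contactin-associated protein, held 0.107% or less in WT and 1.22%, 2.71%, 1.41% and 4.34% in KO. Its Lap2alpha was 0.0709%, below the 0.487% of the 2.5 Mb to each side. Lsamp, a neuronal surface protein, held 0.739%, 3.98%, 0.186% and 2.11% in WT and 1.01%, 2.55%, 1.48% and 4.58% in KO. Cntnap2 was higher in KO in 4 of 4 pairs, while Ptprd and Lsamp were mixed.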

How the data were processed

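The authors deposited, for each of 18 ChIP-seq libraries, a list of intervals as chromosome, start and end positions on GRCm38, with no score, signal or read count, so depth is unknown and no interval for counting error can be given. MACS2 2.1.4, HOMER 4.11.1, SAMtools, bedtools and deepTools were used, per the submitters' processing notes, which give no order or settings. The 4 input samples of the series were not analysed here. Intervals of zero width were dropped and the rest merged where they overlapped or touched, since 7 of the 18 lists held overlapping intervals. Gene bodies came from the RefSeq table of GRCm38, and a listed start from its promoter table (164 of 209 members; for the other 45 both ends were used where all members are counted). The measure is the percent of a body covered by merged regions. Other measures were coverage in 10 bins of the body, in flanks of 250 kb and in the 2.5 Mb to each side. Computation used Python 3.11.15, NumPy 2.4.6 and pandas 2.3.3, and figures matplotlib 3.10.9. No test was run, since each group had 1 library. The coverage code was tested on simulated data: in 1000 windows 0 were wrong, and a 3-fold excess planted in 200 of 944 genes of 200 kb or more came back as 2.97-fold, against 1.06-fold in the others. Members and gene lists were chosen with earlier results of these data known. Named genes are the 10 largest lamin A/C differences each way among members that differ one way in all 4 pairs, the 5 highest for each protein, the 5 largest BRG1 differences each way and the 3 longest, apart from genes not reported here; predicted genes (Gm or Rik symbols) are counted only, and examples from gene lists and the genes of printed starts were chosen after their values were seen. Alternatives were joining regions within 1 kb, leaving out regions under 300 bp, equal numbers of the widest regions, a limit of 750 kb, the left-out genes put back, subsets of pairs, other windows and flanks, and, added after the data were seen, scaling to the autosomes and taking the neighbourhood off.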

Additional observations from a re-analysis of the deposited data

Results flagged for a closer look

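In 7 of the named members the KO minus WT lamin A/C difference took opposite signs in both pairs of one kind and both pairs of the other. These differences were not tested. Between antibodies, the mean over the 3A6 pairs and that over the E1 pairs were −7.56 and 4.38 points in Clstn2, a gap of 11.9 points. In Tmem132d they were −7.63 and 2.15 points, a gap of 9.78. Tenm3 had −3.36 and 3.55 points, a gap of 6.91. Fhit had the smallest gap, 1.55 points, from −0.988 to 0.564. Between sonication lengths, the mean at 16 cycles and that at 20 cycles were 0.734 and −1.45 points in Sema6d, a difference of −2.18. They were 0.452 and −1.22 points in Nfia, a difference of −1.67, and 0.349 and −0.921 points in Ptprd, a difference of −1.27.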

How the results depend on the processing

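No paired analysis was possible because each group had 1 library with no replicates to pair and no result came from a test; KO minus WT differences are within pairs matched on antibody and cycles. The sign of the mean lamin A/C difference (0.490 points) depended on the setting: it was −0.0330 without regions under 300 bp, −0.205 with equal numbers of the widest regions, −0.263 with 3A6 alone and −0.174 with the neighbourhood taken off, and 0.148 to 1.01 leaving out each pair. The mean BRG1 difference (0.210 points) was −0.0347 as a ratio to the autosomes and −0.0808 with the neighbourhood taken off, and −0.288 to 0.709 leaving out a pair. That of CHD4 (−0.301 points) was 0.0262 with equal numbers of the widest regions and −1.11 to 0.506 leaving out a pair. The cause was not tested. Relative to the autosomes the lamin difference stayed below 0 in all settings run, −0.36 to −0.20 leaving out each pair. WT lamin enrichment (log2 0.73) was 0.70 without short regions, 0.88 for members of 750 kb or more and 0.81 with the left-out genes put back. Members higher in KO (96) numbered 58 without short regions, 43 of 750 kb or more, 153 with E1 alone, 154 at 16 cycles alone and 35 with the neighbourhood taken off, and 96 to 126 leaving out each pair. The 750 kb limit keeps fewer members, and subsets of pairs ask for agreement in fewer pairs. Counts under these settings, higher or lower, are therefore not on the same basis as the main ones. Members lower (9) numbered 26 with equal numbers of regions, 52 with 3A6 alone, 30 at 20 cycles alone, 32 with the neighbourhood taken off and 39 scaled, and 9 to 22 leaving out each pair, the 22 without the E1 pair at 16 cycles. The BRG1 start share (36.6%) was 28.2% in members of 750 kb or more and 50.8% within 5 kb, and the WT position ratio (log2 −0.25) was −0.34 in members of 750 kb or more. Lists without depth cannot separate absence of a region from a shallow library.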
